A study of Mus musculus with 9 samples.

Results

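The 10 genes described here encode the Notch receptors *Notch1*, *Notch2*, *Notch3* and *Notch4*, the ligands *Jag1* and *Jag2*, and the Notch target genes *Hes1*, *Hey1*, *Hey2* and *Heyl*. They were taken by symbol from 55416 genes counted by RNA-Seq, and the list was drawn up with their levels in these libraries known, so that their values are given as a description and without a p-value. The cells were AdvSca1-SM cells, Sca1-expressing vascular progenitors that derive from smooth muscle. They were sorted from aorta and carotid artery, pooled over SM22α-Cre-YFP mice, in which a smooth muscle promoter drives Cre, and were then expanded in culture. The Stem group received vehicle and, by the study's account, stayed in stem cell media. The TGF-β group received 5 ng/mL TGF-β1 in DMEM with 0.1% FBS, and the Both group received 5 ng/mL TGF-β1 with 50 μM PFI-3 in the same medium. PFI-3 is a bromodomain inhibitor whose target here is Brg1 (*Smarca4*), an ATPase of the BAF chromatin remodeling complex. All groups received 0.1% DMSO for 72 hours, and each had 3 libraries, which the study calls independent replicates. Between Stem and TGF-β the medium changed together with TGF-β1, so those cannot be told apart, whereas TGF-β and Both differed in PFI-3.

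Notch receptors are cleaved when a Jagged or Delta-like ligand on a neighboring cell binds them. ADAM proteases and then γ-secretase cut the receptor, and the released intracellular domain enters the nucleus, where it joins the DNA-binding protein RBPJ and a Mastermind-like coactivator to turn on target genes, among them the Hes and Hey repressors. In the artery wall, *Notch3* and *Jag1* are known for their part in smooth muscle cells and pericytes, and *Notch4* is known mainly from endothelium.

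Library totals ran from 35686291 to 47741128 counts, and replicate libraries correlated across genes with a Spearman's rho of 0.995 or more, where genes are not independent replicates. Levels are given as normalized counts, which are counts scaled to a mean library of 41184338. A count of 3, taken as the limit of detection, equals between 2.63 and 3.26 normalized counts. Genes were called past the threshold at a Benjamini-Hochberg adjusted p of 0.05 from edgeR's quasi-likelihood test over 14879 genes, together with a log2 fold change beyond -1 or 1. The summed level of 4 progenitor markers (*Ly6a*, *Cd34*, *Pdgfra* and *Scara5*) was 50475 to 58767 normalized counts in the Stem libraries, 6361 to 6638 in TGF-β and 6784 to 7423 in Both, and that of 4 TGF-β target genes was 33393 to 44105, 186353 to 196610 and 202155 to 209731. *Pdgfra* made up most of the progenitor sum, with means of 45657, 5438 and 6268 normalized counts in Stem, TGF-β and Both. By their means, *Ly6a* (7635, 941.2 and 733.7), *Cd34* (378.8, 20.8 and 13.4) and *Scara5* (1132, 92.3 and 41.3) were lowest in Both. The extraction note in the labels names hepatic tissue. Of 5 hepatocyte markers, *Alb*, *Apoa1*, *Ttr* and *Serpina1a* had 3 counts or fewer in every library, and *Apob* made up most of the summed level of 32.6 to 48.2 normalized counts in the Stem libraries, 29.1 to 31.4 in TGF-β and 13.2 to 18.8 in Both. The leukocyte genes *Ptprc*, *Adgre1*, *Cd3e* and *Cd79a* had 3 counts or fewer in every library, while the summed level of 6 leukocyte markers, led by *Csf1r*, was 19.6 to 41.9, 71.0 to 103.6 and 152.2 to 156.2 normalized counts in the 3 groups. The part of these other cell type markers in the results below was not tested.

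Between Stem and TGF-β, 6 of the 10 Notch genes passed the threshold, all of them higher in TGF-β, namely *Notch4*, *Jag1*, *Jag2*, *Hes1*, *Hey1* and *Heyl*. Of all genes tested, 25.1% passed in either direction and 10.6% as higher. Between TGF-β and Both only *Heyl* passed, as lower with PFI-3, against a background of 0.632% in either direction, 0.47% as lower and 0.161% as higher. Between Stem and Both, 5 of the 10 passed, all higher in Both (*Notch4*, *Jag2*, *Hes1*, *Hey1* and *Heyl*), against 22.8% of all genes in either direction and 9.55% as higher. The member list was chosen with these comparisons known, and nothing is read from the counts. The median log2 fold change of the 10 genes was 1.55 from Stem to TGF-β, -0.50 from TGF-β to Both and 1.38 from Stem to Both, and that of all genes tested was close to 0 in each (-0.0027, -0.0020 and -0.0046). The comparisons share the TGF-β or the Stem libraries, and their values for a gene are therefore set side by side only. In bulk RNA, fewer cells that express a gene and less of its RNA per cell cannot be told apart.

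**Figure D1:**
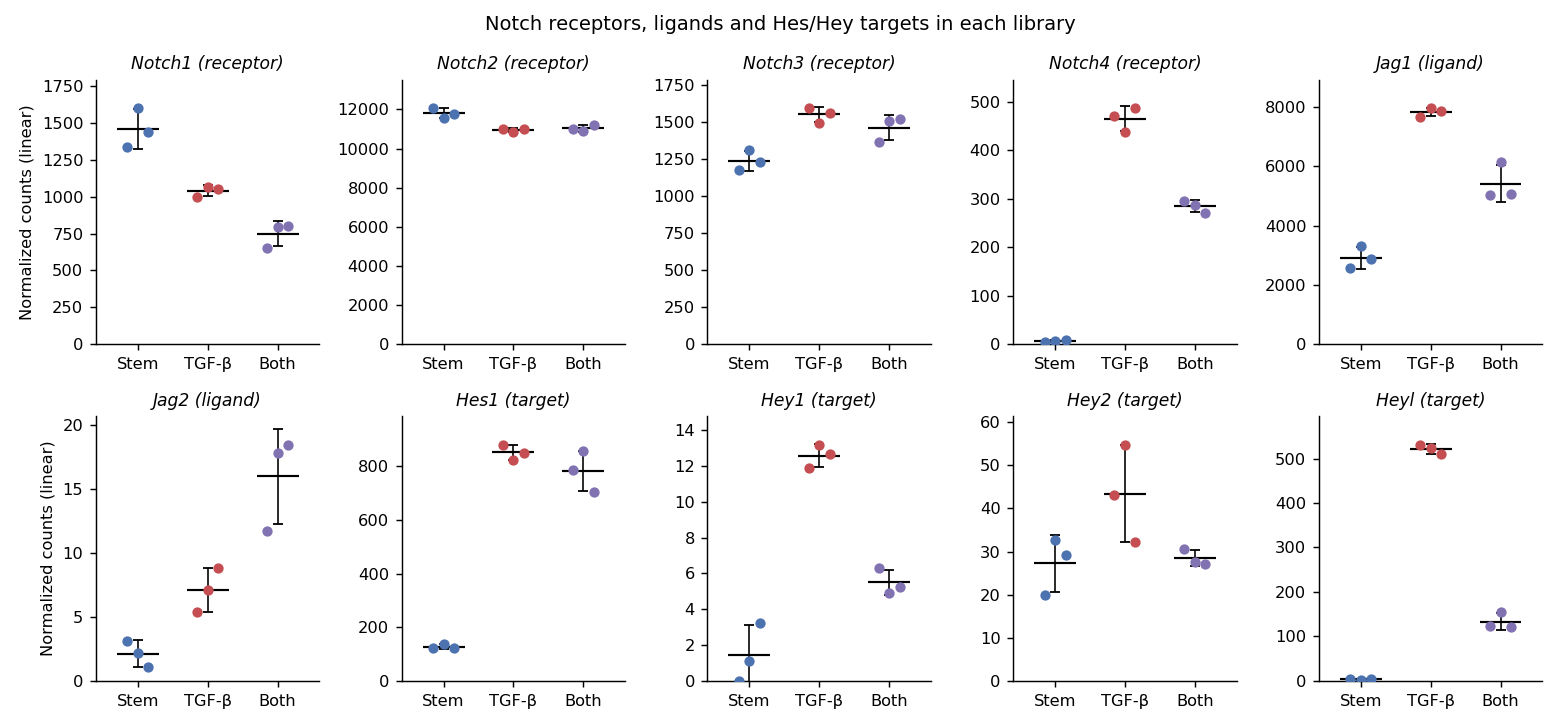
Normalized counts (linear axis, a separate scale for each gene) of the 4 receptors, 2 ligands and 4 targets in the 3 Stem, 3 TGF-β and 3 Both libraries; points are libraries, the wide line is the mean and the bar is the SD. *Heyl* and *Notch4* lie near 0 in Stem, highest in TGF-β and between them in Both, whereas *Notch2* stays between 10824 and 12073 throughout.

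Among the receptors, *Notch4* (ENSMUSG00000015468) had the widest range. It had 5.23, 6.52 and 8.65 normalized counts in the 3 Stem libraries, which are 19 reads in all, against 471.6, 437.1 and 487.2 in TGF-β. In Both it had 295.3, 288.2 and 270.3 normalized counts, and it entered the test through its levels in TGF-β and Both. Every TGF-β library was above every Both library, and every Both library was far above Stem. The fitted log2 fold change was 6.07 ± 0.146 (SE) from Stem to TGF-β, and the ratio of pooled reads was 68.6 with a 95% counting interval of 43.8 to 114. From TGF-β to Both the log2 fold change was -0.71 ± 0.0795 (SE), a ratio of 0.611 (0.562 to 0.665), which did not reach the fold-change minimum. Counting intervals cover counting error only, and reads without molecular identifiers are not independent molecules. Each SE of a log2 fold change was back-calculated as that value over the square root of the test's F statistic. For *Notch4* and *Heyl*, with few Stem reads, the SE against Stem understates even the error from counting, and the counting interval is the safer guide. The same holds for *Jag2* and *Hey1*, also from TGF-β to Both.

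Levels of other endothelial genes were read beside *Notch4*. The summed level of 9 endothelial markers was 171.7 to 406.2 normalized counts in the Stem libraries, 1339 to 1483 in TGF-β and 1030 to 1206 in Both. Most of it in TGF-β and Both came from the transcription factor gene *Erg*, with 153.9, 56.5 and 90.9 normalized counts in the Stem libraries, 1422, 1257 and 1360 in TGF-β, and 1137, 973.2 and 977.8 in Both. The defining endothelial genes *Tie1* and *Sox17* had 3 counts or fewer in every library, and *Cdh5* and *Pecam1* had at most 13 counts in any. *Emcn* was higher in Stem, at 46.7 to 175.9 normalized counts, than in TGF-β and Both, where the highest library had 17.6. *Kdr*, a VEGF receptor gene, had 0, 0 and 2 counts in Stem, 21, 25 and 31 in TGF-β, and 34, 32 and 24 in Both. It passed the threshold from Stem to TGF-β, having entered the test through its levels in TGF-β and Both. *Tek* had 36 to 50, 14 to 22 and 16 to 23 counts in the 3 groups, and *Vwf* had 8 to 16, 7 to 11 and 4 to 7.

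The promoter of *Notch4* is shown because this receptor had the widest range of the 4. RefSeq's table of promoters (assembly GRCm38.p6, 250 bases before to 50 after the start) held 7 of the 10 genes, namely the 4 receptors, *Jag1*, *Jag2* and *Hey2*. They were searched on both strands for CGTGGGAA, the RBPJ site, for its core TGGGAA, which lies within it, for CAGAC, a SMAD-binding element, for TGANTCA, the AP-1 site, and for CACGTG, an E-box. The *Notch4* window lies at chr17:34564045-34564344 on the plus strand, and the capitals mark TGACTCA, which starts 4 bases upstream of the start, and CAGAC, which starts 13 bases past it.
Notch4: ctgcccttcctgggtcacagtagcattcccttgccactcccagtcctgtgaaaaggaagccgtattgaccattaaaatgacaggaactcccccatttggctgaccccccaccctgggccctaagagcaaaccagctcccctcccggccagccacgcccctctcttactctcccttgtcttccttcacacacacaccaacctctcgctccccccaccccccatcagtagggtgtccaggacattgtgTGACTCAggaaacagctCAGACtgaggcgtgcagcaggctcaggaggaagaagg
TGANTCA occurred in 7.81% and CAGAC in 49.6% of the 32851 promoters in the table, and a match is a description of the letters only. CAGAC, on either strand, was also in the *Notch3* window, starting 152 and 133 bases upstream, and in the *Jag1* window, starting 209 bases upstream. The core TGGGAA, held by 25.6% of all promoters, was not among the letters of the 6 receptor and ligand windows, and CACGTG, held by 7.15%, was in none of the 7.

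*Notch1* (ENSMUSG00000026923) stepped down across the 3 groups. It had 1335, 1601 and 1438 normalized counts in the Stem libraries, 997.1, 1069 and 1054 in TGF-β, and 649.2, 793.6 and 800.5 in Both. No pair of groups overlapped, although no step reached the 2-fold minimum. The log2 fold change was -0.49 ± 0.0830 (SE) from Stem to TGF-β and -0.48 ± 0.0855 (SE) from TGF-β to Both. From Stem to Both it was -0.96 ± 0.0844 (SE), just inside the minimum, and it lay past it without Stem replicate 1 (-1.0173), without Both replicate 2 (-1.0017) or without Both replicate 3 (-1.0098), and with libraries scaled by total counts (-1.0688). An antisense gene, *0610009E02Rik*, overlaps *Notch1* and had 11 to 29 counts per library, which is small beside *Notch1* itself.

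*Notch2* (ENSMUSG00000027878) carried most of the receptor RNA and moved least. It had 12073, 11552 and 11780 normalized counts in the Stem libraries, 10995, 10824 and 11019 in TGF-β, and 10983, 10896 and 11222 in Both. Stem lay above the other groups by a small margin, with a log2 fold change to TGF-β of -0.11 ± 0.0344 (SE), and TGF-β and Both overlapped, with 0.01 ± 0.0344 (SE). The genes *Gm42819* and *Gm42820* overlap *Notch2* on its strand and had 40 to 98 and 21 to 66 counts per library. *Notch3* (ENSMUSG00000038146), the receptor best known from vascular smooth muscle, had 1176, 1312 and 1230 normalized counts in the Stem libraries. It had 1596, 1498 and 1565 in TGF-β and 1364, 1506 and 1522 in Both. The TGF-β and Both groups were above Stem without overlap, by 0.33 ± 0.0569 and 0.24 ± 0.0568 on the log2 scale (SE), while TGF-β and Both overlapped, with a log2 fold change of -0.09 ± 0.0560 (SE).

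Of the ligands, *Jag1* (ENSMUSG00000027276) was the abundant one. It had 2587, 3322 and 2863 normalized counts in the Stem libraries, 7681, 7972 and 7870 in TGF-β, and 5047, 6148 and 5071 in Both. The groups did not overlap, and Both stood between Stem and TGF-β. From Stem to TGF-β the log2 fold change was 1.42 ± 0.0898 (SE), which passed the threshold. The difference from TGF-β to Both was -0.53 ± 0.0873 on the log2 scale (SE), below the fold-change minimum, and that from Stem to Both was 0.89 ± 0.0893 (SE). Without Stem replicate 2 the last value was 1.0011, which passed.

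*Jag2* (ENSMUSG00000002799) was counted in few reads, with 3, 2 and 1 in Stem, 5, 7 and 9 in TGF-β, and 13, 18 and 21 in Both. It was the 1 gene of the list with its highest level in Both, and the normalized counts of 1.08 to 3.14, 5.40 to 8.79 and 11.7 to 18.4 did not overlap. Every Stem library was at the limit of detection, so that *Jag2* entered the test through its level in Both. The ratio of pooled reads was 3.34 (1.30 to 10.1) from Stem to TGF-β, 2.23 (1.32 to 3.90) from TGF-β to Both and 7.44 (3.20 to 21.2) from Stem to Both. The first and last passed the threshold, the first of them not with DESeq2 or with TREAT, a test against a 2-fold change. The middle one, with a log2 fold change of 1.14 ± 0.334 (SE), did not, and it did so in a fit of the 6 TGF-β and Both libraries alone.

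Among the targets, *Heyl* (ENSMUSG00000032744), a basic helix-loop-helix repressor known downstream of *Notch3* in vascular smooth muscle, differed most. It had 4, 1 and 4 reads in Stem, so that it entered the test through its levels in TGF-β and Both. Its normalized counts were 530.9, 523.3 and 509.6 in TGF-β and 123.3, 156.0 and 121.1 in Both. The TGF-β libraries lay close together and far above every Both library, and each Both library was in turn far above Stem. From Stem to TGF-β the log2 fold change was 7.29 ± 0.209 (SE), and the ratio of pooled reads was 162 (85.1 to 355). From TGF-β to Both it was -1.97 ± 0.111 (SE), a ratio of 0.255 (0.228 to 0.284), and from Stem to Both 5.32 ± 0.256 (SE). The value from TGF-β to Both stayed between -2.09 and -1.90 under all 19 alternatives in processing and libraries, and it passed the threshold in each of them.

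*Hes1* (ENSMUSG00000022528), the Hes family repressor found in many tissues, did not follow *Heyl* in Both. It had 122.5, 139.1 and 121.2 normalized counts in the Stem libraries, 880.5, 825.5 and 849.4 in TGF-β, and 786.0, 856.8 and 704.8 in Both. The TGF-β and Both libraries lay far above Stem and overlapped each other. The log2 fold change was 2.74 ± 0.0901 (SE) from Stem to TGF-β, 2.61 ± 0.0901 (SE) from Stem to Both, and -0.12 ± 0.0724 (SE) from TGF-β to Both. Over the 19 alternatives the last value ran from -0.19 to -0.05.

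*Hey1* (ENSMUSG00000040289), a repressor related to *Heyl*, was close to the limit of detection. It had 0, 1 and 3 reads in Stem, 11, 13 and 13 in TGF-β, and 7, 5 and 6 in Both, so that it entered the test through its level in TGF-β. Its normalized counts of 0 to 3.25, 11.9 to 13.2 and 4.94 to 6.30 did not overlap. The ratio of pooled reads was 8.82 (3.17 to 34.1) from Stem to TGF-β and 3.86 (1.27 to 15.7) from Stem to Both, and each passed the threshold. The second call was lost with DESeq2, with TREAT, and without Stem replicate 1, without Stem replicate 2 or without Both replicate 1, where the log2 fold change was 1.30, 1.72 and 1.76. From TGF-β to Both the ratio was 0.438 (0.235 to 0.789), and the log2 fold change of -1.17 ± 0.397 (SE) did not pass, although it did in a fit of those 6 libraries alone.

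*Hey2* (ENSMUSG00000019789), a repressor known from arterial development, was the target with the least contrast. It had 19.9, 32.6 and 29.2 normalized counts in the Stem libraries, 43.2, 54.8 and 32.2 in TGF-β, and 30.6, 27.6 and 27.2 in Both. Stem overlapped both other groups, and the lowest TGF-β library was only slightly above the highest Both library. The log2 fold change was 0.67 ± 0.245 (SE) from Stem to TGF-β, -0.60 ± 0.236 (SE) from TGF-β to Both and 0.07 ± 0.257 (SE) from Stem to Both. The last value turned to -0.11 without Stem replicate 1 and to -0.04 with libraries scaled by their total counts.

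The *Hey2* promoter is shown because it was the 1 window of the 7 with the letters of the RBPJ site. It lies at chr10:30842734-30843033 on the minus strand (GRCm38.p6, RefSeq), and the capitals mark TTCCCACG, which is CGTGGGAA on the other strand and starts 207 bases upstream, and CGTGGGAA itself, which starts 5 bases upstream of the start.
Hey2: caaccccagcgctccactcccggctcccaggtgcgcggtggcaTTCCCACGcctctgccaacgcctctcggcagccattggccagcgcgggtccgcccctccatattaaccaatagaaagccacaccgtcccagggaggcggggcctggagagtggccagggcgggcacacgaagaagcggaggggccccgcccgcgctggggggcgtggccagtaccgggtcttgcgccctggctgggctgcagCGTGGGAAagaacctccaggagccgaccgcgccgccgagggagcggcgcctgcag
CGTGGGAA occurred on either strand in 241 of the 32851 promoters (0.734%), and the *Hey2* window held 2 matches. *Hes1*, *Hey1* and *Heyl* had no window in the table, so *Hey2* was the only target searched and the site was not compared among targets.

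**Figure D2:**
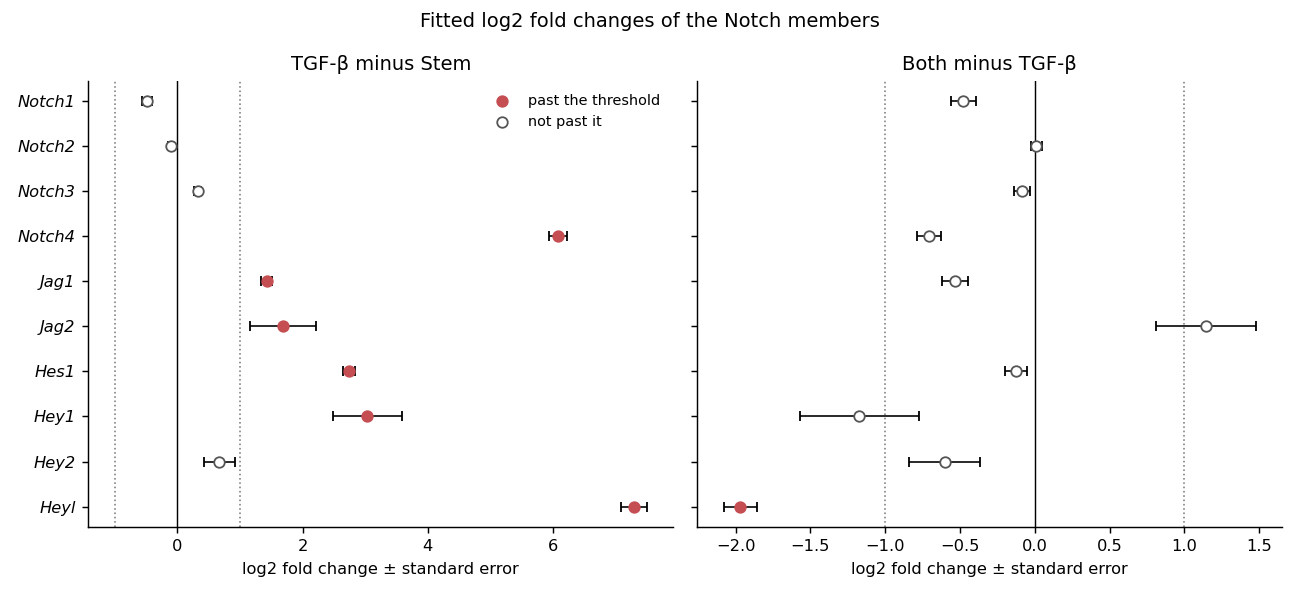
Fitted log2 fold changes of the 10 genes from Stem to TGF-β (left) and from TGF-β to Both (right), on separate linear axes. Bars are standard errors back-calculated from the test's F statistic, and they understate the error where a gene had few reads in either group. Dotted lines mark the minimum of -1 and 1, and filled points passed the threshold. On the left 6 genes are filled, up to *Heyl* at 7.29, and on the right only *Heyl* at -1.97, while *Jag2* and *Hey1* lie past a dotted line without passing.

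Without the fold-change minimum, all 10 genes had an adjusted p below 0.05 between Stem and TGF-β, 8 of them higher and 2 (*Notch1* and *Notch2*) lower in TGF-β. This was so for 75.0% of all genes tested, 37.3% as higher. Between TGF-β and Both, 4 did (*Notch1*, *Notch4*, *Jag1* and *Heyl*, each lower in Both), against 8.92% of all genes, 5.38% as lower and 3.54% as higher. Between Stem and Both, 9 did, the exception being *Hey2*, against 73.3% of all genes, with 36.6% in each direction. The groups did not overlap in 9, 7 and 9 of the 10 genes in the 3 comparisons, against 76.8%, 32.7% and 74.7% of all genes. As with the counts above, nothing is read from them.

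Levels were compared between genes per kilobase of exon (RPKM). In Stem, *Notch2* was the highest at 26.6 ± 0.588 (SD, n = 3), followed by *Jag1* at 12.2 ± 1.55, *Notch3* at 3.72 ± 0.205, *Notch1* at 2.49 ± 0.229 and *Hes1* at 1.52 ± 0.119. *Hey2* came next at 0.144 ± 0.0348, and *Notch4*, *Heyl*, *Hey1* and *Jag2*, all at a mean of 0.0205 or less, overlapped their neighbors in the order. In TGF-β, *Jag1* was the highest at 32.7 ± 0.616, above *Notch2* at 24.7 ± 0.239, and *Hes1* came next at 10.2 ± 0.329. *Notch3* had 4.66 ± 0.151, *Heyl* 2.48 ± 0.0512, *Notch1* 1.77 ± 0.0648 and *Notch4* 1.40 ± 0.0772 RPKM, with *Hey2*, *Hey1* and *Jag2* below 1. No neighbors in the TGF-β order overlapped. In Both, *Notch2* at 24.8 ± 0.380 and *Jag1* at 22.6 ± 2.62 overlapped, and *Hes1* followed at 9.33 ± 0.906 and *Notch3* at 4.39 ± 0.261. *Heyl*, at 0.634 ± 0.0926, was then below *Notch1* at 1.28 ± 0.146 and *Notch4* at 0.857 ± 0.0388. *Jag2* and *Hey1* were the lowest and overlapped.

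As a share of the summed receptor RPKM, *Notch2* held 81.0% ± 1.41 in Stem, against 75.9% ± 0.235 in TGF-β and 79.2% ± 0.930 in Both (SD over 3 libraries). *Notch4* held 0.0625% ± 0.0161, 4.31% ± 0.185 and 2.73% ± 0.175. The share of *Notch3* was 11.3% ± 0.675, 14.3% ± 0.309 and 14.0% ± 0.629, and that of *Notch1* was 7.58% ± 0.729, 5.46% ± 0.246 and 4.06% ± 0.408. The receptor pool was thus mostly *Notch2* in every library. Among the 4 targets, *Hes1* held 90.0% ± 2.11, 78.4% ± 0.867 and 91.9% ± 0.270, and *Heyl* held 0.928% ± 0.562, 19.1% ± 0.373 and 6.23% ± 0.446. *Hey2* held 8.46% ± 1.58 in Stem and 1.77% ± 0.477 and 1.49% ± 0.156 in TGF-β and Both, with 0.144, 0.229 and 0.151 RPKM of its own in the 3 groups.

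**Figure D3:**
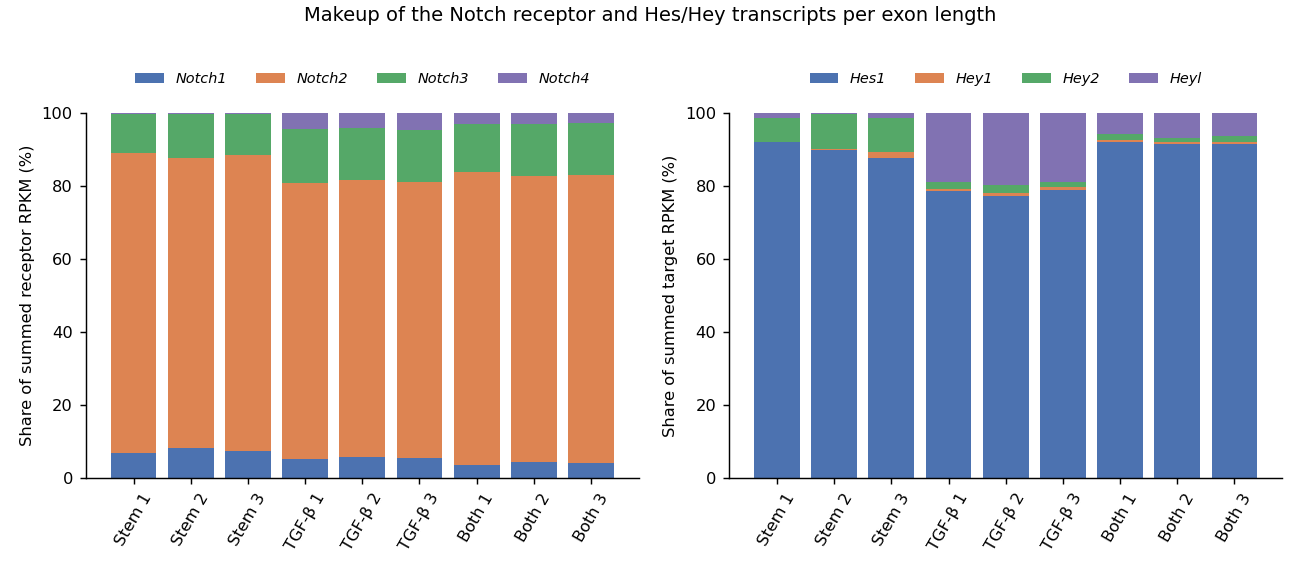
Share of the summed RPKM (%) that each of the 4 receptors (left) and 4 Hes/Hey targets (right) held in each of the 9 libraries, as stacked bars that end at 100. *Notch2* fills between 75.7% and 82.4% of every receptor bar, and the *Heyl* segment is 18.9% to 19.5% in the TGF-β libraries and 5.76% to 6.65% in the Both libraries.

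Mural cell markers were read beside *Heyl*, *Notch3* and *Jag1*. The summed level of 11 such markers was 12204 to 14461 normalized counts in the Stem libraries, 44672 to 47293 in TGF-β and 30927 to 32832 in Both, and none of the 11 was at the limit of detection in a whole group. *Rgs5*, a pericyte marker, had 129.8, 119.5 and 125.5 normalized counts in the Stem libraries, 6535, 7078 and 5615 in TGF-β, and 2026, 2619 and 1715 in Both. *Cspg4* (NG2), another pericyte marker, had 637.6 to 1221, 15551 to 16369 and 11072 to 11892 normalized counts in the 3 groups. *Acta2* had means of 4833, 11215 and 7447 and *Tagln* of 3402, 9090 and 7627. With *Rgs5* and *Cspg4* they made up most of the TGF-β sum. By their means, *Mcam* (88.1, 215.4 and 126.6) and *Des* (12.5, 24.6 and 14.0) were also highest in TGF-β. Not all mural markers moved this way. *Cnn1* had means of 378.1, 334.9 and 216.1 and *Smtn* of 2594, 2485 and 2312. *Kcnj8* had 50.8 to 59.8, 2.16 to 7.10 and 3.60 to 7.90 normalized counts, *Abcc9* 603.1 to 712.9, 49.8 to 85.2 and 97.7 to 136.9, and the smooth muscle myosin gene *Myh11* 198.8 to 335.0, 71.0 to 110.1 and 45.0 to 64.2. The part of these in the Notch values was not tested.

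The genes whose log2 levels were most like those of *Heyl* over the 9 libraries, out of 10898 with a mean of at least 100 normalized counts, were *Tpm1*, *Slc3a2* and *Zfp827*, with Pearson's r of 0.998, 0.997 and 0.996. For *Jag1* they were *Anxa4*, *Glipr2* and *Cd200*, with 0.998, 0.997 and 0.996, and for *Notch3* they were *Slc25a17*, *Casp9* and *Igbp1*, with 0.979, 0.973 and 0.972. These values describe 9 libraries that share 3 groups and their depths. Likeness covered the pattern and not its size. *Tpm1*, for example, had means of 10747, 17674 and 15618 normalized counts in Stem, TGF-β and Both, a far narrower range than that of *Heyl*.

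The rest of the pathway was read from 64 further genes, of which 54 were tested. This list was also drawn up with earlier results of these data known, so adjusted p-values for its genes describe these libraries only. The 10 not tested were *Dll3*, *Dll4*, *Dlk2*, *Mfng*, *Hes2*, *Hes3*, *Hes5*, *Hes7*, *Nrarp* and *Helt*. Between Stem and TGF-β, 10 of the 54 passed the threshold (18.5%, against 25.1% of all genes), 1 of them higher (10.6% of all genes) and 9 lower (14.5%) in TGF-β, and the median log2 fold change of the 54 was -0.14. Between TGF-β and Both, 0 passed by edgeR's quasi-likelihood test and 0 by DESeq2, with a median of 0.02. At an unadjusted p below 0.05, 21 of the 54 did so, 1 of them (*Dtx1*) with the fold-change minimum, against 24.1% of all genes. Between Stem and Both, 11 passed (20.4%, against 22.8% of all genes), 1 higher (9.55% of all genes) and 10 lower (13.2%).

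Genes of the nuclear complex were lower in TGF-β than in Stem. *Rbpj* (ENSMUSG00000039191), the DNA-binding partner of every Notch receptor, had 11834, 11896 and 11868 normalized counts in the Stem libraries, 2300, 2353 and 2369 in TGF-β, and 2896, 2748 and 2750 in Both. The 3 groups did not overlap, and Both lay much nearer to TGF-β than to Stem. The log2 fold change was -2.34 ± 0.0368 (SE) from Stem to TGF-β (adjusted p = 2.2e-13 by edgeR's test). From TGF-β to Both it was 0.26 ± 0.0361 (SE, adjusted p = 0.0010 by edgeR's test), below the fold-change minimum, and from Stem to Both -2.08 ± 0.0363 (SE, adjusted p = 5.4e-13 by edgeR's test). All 7 genes of the nuclear complex list (*Rbpj*, *Maml1*, *Maml2*, *Maml3*, *Ep300*, *Kat2b* and *Snw1*) were lower in TGF-β at an adjusted p below 0.05 by edgeR without the minimum, as were 37.7% of all genes. With the minimum 2 of the 7 passed as lower, against 14.5% of all genes. The median log2 fold change of the 7 was -0.59. *Maml3*, a Mastermind-like coactivator, was the other to pass, at -1.29 ± 0.0617 (SE, adjusted p = 1.8e-09 by edgeR's test), with 964.8 ± 39.9, 393.9 ± 21.4 and 390.6 ± 13.6 normalized counts across Stem, TGF-β and Both (SD, n = 3 each). *Maml1* and *Maml2* had log2 fold changes of -0.37 and -0.54 from Stem to TGF-β. From TGF-β to Both the 3 Mastermind-like genes had -0.14, 0.03 and -0.01, and none had an adjusted p below 0.05.

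Corepressors that hold Notch targets off in the absence of signal include the Groucho-related *Tle* genes, and 2 of the 10 corepressor genes passed the threshold between Stem and TGF-β, against 25.1% of all genes in either direction and 14.5% as lower. *Tle4* fell by 2.71 on the log2 scale (SE 0.112, adjusted p = 4.7e-10 by edgeR's test), from 529.3 ± 29.8 normalized counts in the Stem libraries to 80.8 ± 7.25 in TGF-β, and it stood at 122.3 ± 17.0 in Both (SD, n = 3 each). *Tle2* fell by 1.87 (SE 0.0994, adjusted p = 4.8e-09 by edgeR's test), from 466.9 ± 46.1 to 127.4 ± 7.64, with 115.6 ± 7.08 in Both (SD, n = 3 each). With *Rbpj* these were the 3 largest falls among pathway genes with a mean of at least 100 normalized counts, and no pathway gene of that level rose past the threshold. *Tle1* and *Tle3* did not pass, with log2 fold changes of 0.71 and -0.09 from Stem to TGF-β.

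The other ligands were scarce. *Dll1*, a Delta-like ligand, fell from 186.3, 153.2 and 187.2 normalized counts in the Stem libraries to 42.1, 24.3 and 24.4 in TGF-β, and had 26.1, 26.7 and 33.4 in Both. Stem was above both other groups, which overlapped each other. Its change from Stem to TGF-β was -2.54 ± 0.194 on the log2 scale (SE, adjusted p = 1.5e-07 by edgeR's test), and from TGF-β to Both it was -0.06 ± 0.246 (SE, adjusted p = 0.92 by edgeR's test). *Dll4*, the ligand best known from arterial endothelium, had at most 2 counts in any library. *Dlk1* and *Dner*, ligands that differ from the Delta and Jagged type, also passed, with log2 fold changes of -3.07 ± 0.328 and 2.23 ± 0.538 (SE). They are named after their values were seen, and *Dner* had 1 to 3 counts in the Stem libraries, where its SE understates the error from counting. *Dlk1* entered the test through its level in Stem and *Dner* through its level in Both, so no p-value is given for them.

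Among the genes that cut or modify the receptor, *Adam10* and *Adam17*, which encode ADAM proteases that can cut it, had log2 fold changes of -0.09 and -0.19 from Stem to TGF-β and of 0.10 and 0.10 from TGF-β to Both. Of the 10 genes of the cleaving proteases and their subunits, 1 passed between Stem and TGF-β (against 25.1% of all genes in either direction and 14.5% as lower). This was the subunit gene *Aph1c*, at -1.39 ± 0.245 (SE). It was named after its values were seen, and it shares much of its sequence with *Aph1b* (0.69), so the split of reads between them is uncertain. Of the 7 tested glycosyltransferase genes 0 passed between Stem and TGF-β by edgeR's test, against 25.1% of all genes. Once the fold-change minimum was dropped 5 did, against 75.0% of all genes. The Fringe gene *Lfng*, whose product tunes which ligands a receptor answers, had 28.7 ± 7.63, 25.2 ± 5.44 and 12.7 ± 4.36 normalized counts in Stem, TGF-β and Both, respectively (SD, n = 3 each). *Lfng* fell from Stem to Both, with a log2 fold change of -1.18 ± 0.317 (SE, adjusted p = 0.0052 by edgeR's test), a call lost with TREAT and without Both replicate 1, where it was -0.93. From TGF-β to Both it was -0.99 ± 0.321 (SE, adjusted p = 0.079 by edgeR's test). *Rfng* had -0.17 and 0.15 in the first 2 comparisons, and *Mfng* had at most 1 count in any library.

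Of the other target genes, 3 were tested and none passed between Stem and TGF-β by edgeR's test, against 25.1% of all genes in either direction. *Hes2*, not tested by edgeR, had 0 counts in each Stem library, 2, 4 and 6 in TGF-β, and 3, 4 and 2 in Both. With DESeq2 it passed as higher than Stem in TGF-β and in Both, at counts close to the limit of detection. *Nrarp*, a feedback target of Notch, had at most 3 counts in any library, and *Hes5* and *Hes3* had 0 in all 9. *Ccnd1* (cyclin D1), which has many regulators besides Notch and is named after its values were seen, had 9522, 11454 and 10384 normalized counts in the Stem libraries, 5394, 5867 and 5361 in TGF-β, and 2751, 3188 and 2865 in Both. No groups overlapped, and Both was the lowest. Its log2 fold change was -0.92 from Stem to TGF-β and again -0.92 from TGF-β to Both, short of the fold-change minimum. The fall of 1.83 from Stem to Both passed. In all, 8 of the 54 pathway genes had an adjusted p below 0.05 between TGF-β and Both without the minimum, against 8.92% of all genes. *Rbpj*, *Tle4*, *Dtx4*, *Gxylt1* and *Itch* were higher in Both, and *Ccnd1*, *Myc* and *Tle3* were lower.

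Regulators of Notch turnover and trafficking made up the largest group, with 14 genes. The Deltex genes *Dtx1* and *Dtx4*, named after their values were seen, passed between Stem and TGF-β, as did 25.1% of all genes in either direction. *Dtx4* did so at -1.66 ± 0.0633 on the log2 scale (SE). *Dtx4* had 5802 ± 530 normalized counts in the Stem libraries, against 1835 ± 64.3 in TGF-β and 2239 ± 109 in Both (SD over 3 libraries), while *Dtx1*, at 15.4 ± 4.48, 3.75 ± 0.650 and 8.78 ± 5.23, had at most 19 counts in any library. *Dtx1* entered the test through its level in Stem, and no p-value is given for *Dtx1* or *Dtx4*. *Neurl1b*, a ubiquitin ligase gene also named after its values were seen, passed between Stem and Both only, at -1.28 ± 0.180 (SE). It had -0.83 and -0.44 in the other comparisons, and the difference between them was not tested.

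**Figure D4:**
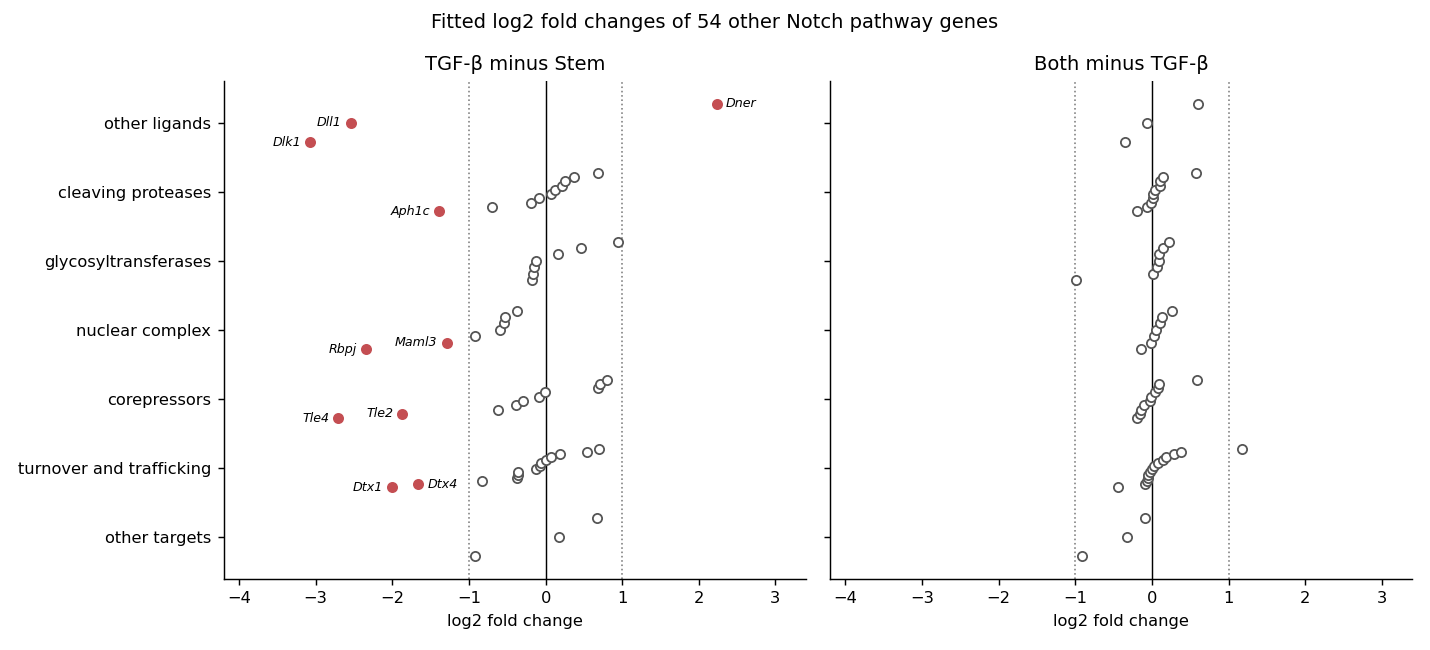
Fitted log2 fold changes of 54 further Notch pathway genes from Stem to TGF-β (left) and from TGF-β to Both (right), 1 point a gene on a linear axis, grouped by role; filled and named points passed the threshold and dotted lines mark -1 and 1. On the left 10 genes are filled, 9 of them below 0, and on the right none is.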

How the data were processed

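RNA was sequenced from 9 libraries, 3 for each of 3 groups, after ribosomal RNA depletion. The table the authors deposited holds counts of reads on each Ensembl gene, as whole numbers that were not normalized. The paper names Flexbar and STAR, whereas the submitters' processing notes list HISAT2 2.2.1, SAMtools 1.13 and HTSeq 0.11.3, both with GRCm39. The strand setting is not given in the sources used here, so sense and antisense reads cannot be told apart.

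Tests were run with edgeR 4.0.16 under R 4.3.3 (filterByExpr, TMM with factors of 0.967 to 1.08, prior count 0.125) fitting the 9 libraries together by group, and 14879 genes were tested. The common dispersion gave a coefficient of variation of 6.13% between replicates. The paper names DESeq2, and DESeq2 1.42.0 was an alternative. An exact permutation test of 3 libraries against 3 cannot give a 2-sided p below 0.1. Where replicates share a cell preparation, p-values measure only the spread between these libraries. The script was tested on simulated data.

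The members and lists were chosen with earlier results of these data known. Named were all members, pathway genes past the threshold with PFI-3, the 3 largest falls and rises with at least 100 mean normalized counts, further genes chosen by name (1 withheld item is not reported here), and the 3 genes most like *Heyl*, *Notch3* and *Jag1*. Alternatives were other scalings, filters, prior count and threshold, DESeq2, TREAT, fits of 6 libraries, a replicate block and leaving out each library. Symbols covered 98.1% of counts. Exon lengths (GENCODE) and promoters (RefSeq) are of GRCm38, so gene coordinates in GRCm39 are not given.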

Additional observations from a re-analysis of the deposited data

How the results depend on the processing

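Leaving out each library in turn gave 6 to 6, 1 to 1 and 4 to 6 Notch members past the threshold (Stem to TGF-β, TGF-β to Both and Stem to Both) and 10 to 11, 0 to 0 and 10 to 12 other pathway genes. Without the fold-change minimum the counts were 10, 4 and 9 members and 43, 8 and 41 pathway genes, against 75.0%, 8.92% and 73.3% of all genes. With a mean of at least 10 counts as the filter, 3 members passed from Stem to Both, since *Hey1* and *Jag2* were not tested. Scaling by total counts gave 6 members from Stem to Both, with *Notch1* as the 1 lower. A fit of only the 6 libraries compared gave 3 members from TGF-β to Both (*Hey1*, *Heyl* and *Jag2*). The main fit did not pair the libraries by replicate number. Of 9 same-numbered pairs, 4 had a correlation of deviations above 0.1 (-0.05 to 0.20, against -0.18 to 0.17 for other pairs). The pairs of replicate 2 had 0.17, 0.20 and 0.14. Among other pairs, Stem 1 with Both 3 (0.17) and TGF-β 1 with Both 3 (0.11) were above 0.1. These values do not settle whether the numbers pair the libraries. The fit with the replicate block gave 2 members from TGF-β to Both (*Heyl* and *Jag2*) and left the other counts within 1.5 times. DESeq2 gave 5, 1 and 4 members, without *Jag2* from Stem to TGF-β and *Hey1* from Stem to Both, and TREAT lost the same calls.

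Of 1246 values of single genes under an alternative, 1195 kept direction and side of the threshold, 29 newly passed, 9 no longer passed and 13 turned sign, all of them within 0.24 of 0 on the log2 scale; the cause was not tested. With total counts, which moved the median of all genes from Stem to TGF-β to -0.12, they were *Maml3* from TGF-β to Both (5e-04), *Hey2* (-0.0374) and *Adam10* (-0.0954) from Stem to Both. With 1 library left out, the values that turned at least once ran from -0.11 to 0.23 for *Hey2* and from -0.0821 to 0.0344 for *Rfng*, both from Stem to Both, and, from TGF-β to Both, from -0.0556 to 0.0198 for *Maml3*, from -0.20 to 0.24 for *Dll1* and from -0.0010 to 0.0186 for *Notch2*. Depth limits *Jag2* and *Hey1*, whose Stem libraries had 3 counts or fewer.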
